A study of Mus musculus with 4 samples.

Results

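The genes described here are 10 genes of the acrosome, the secretory cap that covers the nucleus of the sperm head: Acr, Acrbp, Zpbp, Zpbp2, Dpy19l2, Spaca1, Acrv1, Spaca3, Spaca7 and Spam1. They were chosen by name and matched by gene symbol to the 32285 genes of the deposited matrices, and all 10 were found once each. The question was which of them are transcribed before meiosis ends, and whether their levels at each germ stage differed between testicular organoids (TOs) and testes. The study used droplet-based scRNA-seq on 2 libraries of mouse TOs (TO 1 and TO 2) and 2 libraries of mouse testes (testis 1 and testis 2). Both groups are given an age of 28 days in the design text, and the dissociation notes in the labels name a shorter culture for the TOs. TOs are 3D cultures that assembled from dissociated testis cells of mouse pups, of the ICR strain by the study's methods, so every TO cell comes from immature tissue and several pups may share a library. The labels name no genetic change and no drug in either group, and the cells were not sorted. Nothing in the labels says which culture batch or animal a library came from, so the p-values below measure only the spread between these samples.

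The acrosome is built from vesicles of the Golgi apparatus in round spermatids, after both meiotic divisions, and it later flattens over the nucleus. It carries enzymes and binding proteins that act when a sperm cell meets the cumulus and the zona pellucida of the egg. Several of its transcripts are made well before the organelle is visible, in pachytene spermatocytes, the long stage of the first meiotic prophase in which homologous chromosomes are fully paired. Acr encodes the protease acrosin, Acrbp the protein that holds its precursor in the acrosomal granule, Zpbp and Zpbp2 a pair of related matrix proteins that bind the zona pellucida, and Dpy19l2 an inner nuclear membrane protein that anchors the acrosome to the nucleus. Spaca1 encodes an acrosomal membrane protein, Acrv1 a matrix protein of the acrosomal vesicle, Spaca3 a lysozyme-like protein, Spaca7 a protein released in the acrosome reaction, and Spam1 a hyaluronidase of the sperm surface.

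The libraries held 106577822 and 119966959 UMIs in TOs and 77016449 and 74988295 in testes. After doublet removal and the study's limits on cells, 932 and 698 germ cells remained in TO 1 and TO 2 and 7181 and 7832 in testis 1 and testis 2. Germ cells were clustered without any acrosome gene and named from stage markers. Pachytene spermatocytes numbered 82, 28, 1985 and 1615 in TO 1, TO 2, testis 1 and testis 2, diplotene and dividing spermatocytes 14, 12, 893 and 924, and round spermatids 15, 17, 2975 and 2173. Elongating spermatids were named in the testes alone, with 309 and 2519 cells. Between 30 and 55 barcodes were shared by any pair of libraries, at most 0.44% of the smaller one, and cells with a shared barcode were about as alike as cells with other barcodes.

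All 10 genes are protein coding, and their positions are given on GRCm38 from GENCODE vM21. Acr lies at chr15:89568326-89574585 on the plus strand, Acrbp at chr6:125049689-125063267 (plus), Zpbp at chr11:11279626-11462408 (minus), Zpbp2 at chr11:98551097-98558665 (plus) and Dpy19l2 at chr9:24557047-24696293 (minus). Spaca1 lies at chr4:34024874-34050191 (minus), Acrv1 at chr9:36693220-36698843 (plus), Spaca3 at chr11:80858365-80867814 (plus), Spaca7 at chr8:12573029-12600744 (plus) and Spam1 at chr6:24791188-24801048 (plus). Zpbp and Zpbp2 are thus far apart on 1 chromosome, and no pair of members are neighbours. Zpbp overlaps Spata48 and 2 other genes on the opposite strand and Gm26458 on its own, Acrbp overlaps Gm44597 on its own strand and 4930557K07Rik on the other, and Dpy19l2 and Spaca7 each have 1 gene on the opposite strand (Cypt4 and D630011A20Rik). How reads in these overlaps were counted is not stated in the labels and was not checked.

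Promoters of 9 members were found in RefSeq (GRCm38.p6), from 250 bases before the start to 50 after it, and were searched on both strands for 5 short motifs. A shortened form of the cAMP response element, TGACG, here called the partial element, is bound by the CREM and CREB family, whose testis form CREM is known for its role in spermatids. It stood in the promoters of 5 of 9 members, against 21.0% of 27025 mouse promoters of the same length. The full element TGACGTCA, which holds it, was in none of the 9 and in 1.88% of all promoters. The core bound by MYB factors, CAGTTG, was in Zpbp2 alone (13.6% of all promoters), the short RFX motif GTTGCC in Acrbp alone (12.7%), and the TATA box TATAAA in Spaca7 alone (14.2%). The windows of 30 bases below, 5′ to 3′ on the strand of the gene, show the partial elements and the MYB core in capitals for genes that were already high in pachytene spermatocytes (Acrbp, Zpbp2) and for genes that were not (Spaca1, Spaca3), as described next.
Acrbp, chr6:125049897-125049926, partial element 18 bases before the start: cctcaccttctgTGACGtagcagccgcgcc
Zpbp2, chr11:98550938-98550967, partial element on the opposite strand, 147 bases before: gtttcctttactCGTCAcaccaccaggccg
Zpbp2, chr11:98551026-98551055, MYB core on the opposite strand, 59 bases before: tgcagcgctccgCAACTGcgcgtgcgccag
Spaca1, chr4:34050117-34050146, partial elements 69 and 59 bases before: cttcgaatggggTGACGcgcggTGACGcct
Spaca3, chr11:80858289-80858318, partial element 62 bases before: cacaggtgatctTGACGaagttccgtgagt
The fifth promoter with a partial element, that of Dpy19l2, has it 10 bases after the start. The partial element was thus in 3 of the 4 promoters searched of genes high in pachytene cells and in 2 of the 5 others, and Acr was the member without a promoter in the table. A match describes letters only, and the starts are those of RefSeq: for Acrbp and Spaca1 the GENCODE span of the gene begins before the window.

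In the testes the 10 genes fell into 2 patterns. Acr, Acrbp, Zpbp, Zpbp2 and Dpy19l2 were at 69.0% to 85.6% of their highest level by the last of the pachytene clusters, while Spaca1, Acrv1, Spaca3, Spaca7 and Spam1 were at 1.69% to 1.89% there and reached 50% only among round spermatids. This was read from deep cells: germ cells were clustered again without the upper limits on genes and UMIs per cell, and the clusters with a median of at least 10000 UMIs and at least 100 cells were put in order by their stage markers, none of which is a member. The choice of these clusters and the division of the genes were made after their values were seen, so the levels are a description with no test. Levels are CPM, a gene's UMIs per 1000000 UMIs summed over a library's cells of the cluster or stage. Because 3′ UMI counts depend on the gene, each gene is set against its own highest level, the mean of the testis libraries with at least 30 cells in the cluster.

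There were 9 such clusters. Positions 1 to 3 were pachytene, led by Stambp and Piwil1, by Gm50166 and Cyp19a1, and by Pou5f2. Positions 4 to 6 were diplotene and dividing, led by Pabpc6 and Epha7, by Dnaic2, Ccna1 and Aurka, and by Gm3476, Gm5458 and Ssxb1. Positions 7 to 9 were round spermatids. The sixth cluster had a round spermatid marker score of 0.501 beside its diplotene score of 0.717, against 0.208 and 0.824 for the fifth. The round score was 0.0428 in the fourth cluster, so the round markers had begun to rise by the fifth.

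**Figure D1:**
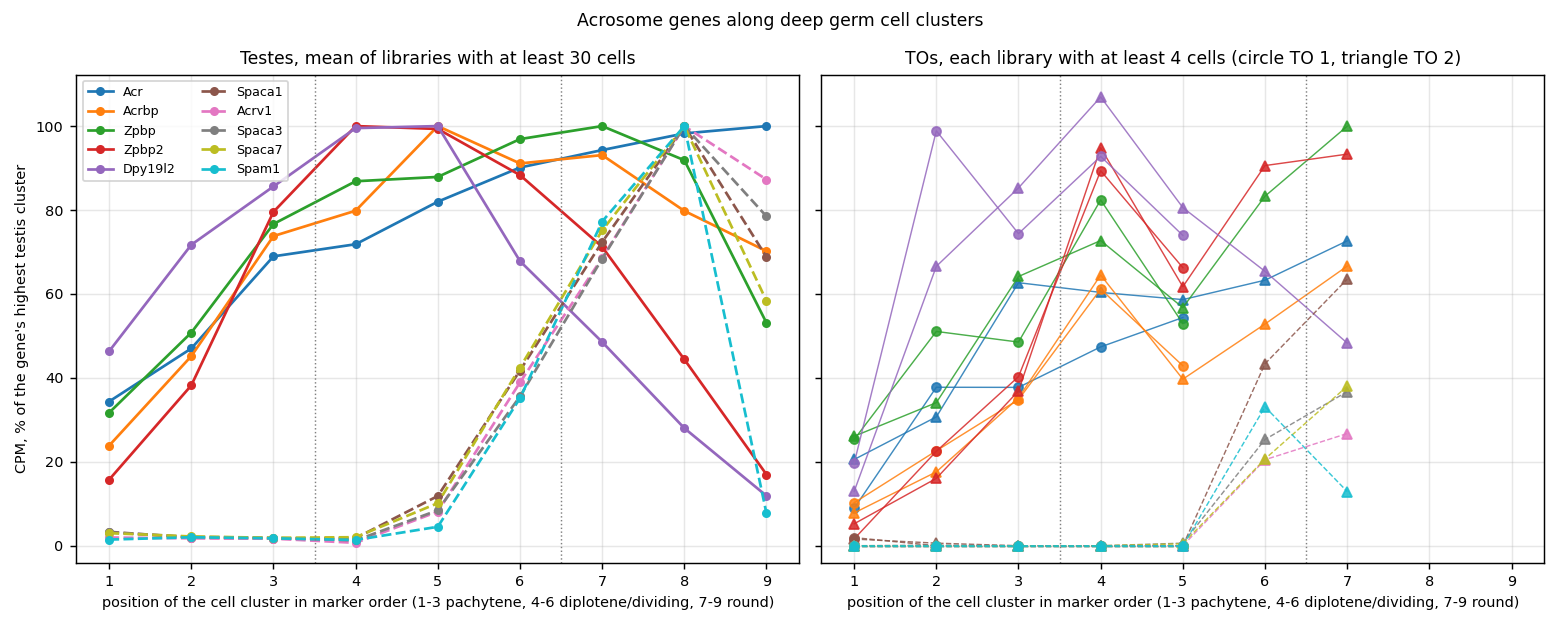
Level of each acrosome gene (CPM, % of the gene's highest testis cluster, vertical axis) along 9 deep germ cell clusters in marker order (horizontal axis, 1 to 3 pachytene, 4 to 6 diplotene and dividing, 7 to 9 round), in testes (left, mean of libraries, testis 2 alone at position 4 and testis 1 alone at position 9) and in each TO library with at least 4 cells (right, circles TO 1, triangles TO 2). Solid lines (Acr, Acrbp, Zpbp, Zpbp2, Dpy19l2) rise from position 1, and dashed lines (Spaca1, Acrv1, Spaca3, Spaca7, Spam1) stay at the bottom up to position 4, in testes and in TOs.

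Dpy19l2 was the most advanced of the first pattern. In the testes it stood at 46.3% of its highest level at position 1 and 71.7% at position 2, was at its highest at position 5 (302 CPM) and was down to 11.9% at position 9 (testis 1 alone, like every percentage at that position), so that its transcript was largely gone in the last round spermatid cluster. The testis libraries differed for this gene at position 5, with 196 CPM in testis 1 and 408 in testis 2. Zpbp also passed 50% at position 2 (50.8%) but stayed high, with its highest level at position 7 (599 CPM) and 53.1% left at position 9. Zpbp2 rose steeply, from 15.7% at position 1 to 38.2% and 79.6% at positions 2 and 3, was at its highest at position 4 (808 CPM, testis 2 only, since testis 1 had no cells there) and fell to 17.0% at position 9. The 2 zona pellucida binding genes thus rose through the same clusters and parted in round spermatids.

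Acrbp was at 23.9%, 45.2% and 73.8% in the pachytene clusters, was highest at position 5 (708 CPM) and kept 70.2% at position 9. Acr had a more gradual course, with 34.4%, 47.0% and 69.0% in the pachytene clusters and 98.2% at position 8. Its value at position 9, the highest as a mean (222 CPM), is that of testis 1 alone, the only library with 30 cells there, and testis 1 had 234 CPM at position 8. The 11 cells of testis 2 at position 9 had lower levels of all 10 genes than testis 1, for instance 39.5 against 222 CPM for Acr. From position 5 to position 8 Acr went from 198 to 234 CPM in testis 1 and from 166 to 201 in testis 2, while Acrbp went from 742 to 667 and from 674 to 463.

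The later genes moved within a narrow range of one another. At positions 1 to 4 they were at 0.7% to 3.3% of their highest level, at position 5 at 4.5% to 11.9%, at position 6 at 35.2% to 42.4% and at position 7 at 68.4% to 77.3%, and each was at its highest at position 8. Their highest levels were 1018 CPM for Spaca1, 887 for Acrv1, 677 for Spaca3, 904 for Spaca7 and 235 for Spam1. From position 8 to position 9, within testis 1, Acrv1 went from 967 to 774 CPM, Spaca1 from 880 to 700, Spaca3 from 691 to 531 and Spaca7 from 730 to 527, while Spam1 went from 201 to 18.2. Spam1 thus dropped much further than the other 4. Within these clusters none of the later 5 genes was at more than 11.9% of its highest level before position 6. At positions 1 to 4, where the round marker score was at most 0.068, they were at 0.7% to 3.3%.

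The TO cells of the same clusters were few but deep, and their counts show the order with little background. At positions 1 to 5, TO 1 had 28 cells with 1191792 UMIs and TO 2 had 37 cells with 2216541 UMIs. These cells held 105 and 207 UMIs of Acr, 315 and 479 of Acrbp, 399 and 623 of Zpbp, 473 and 690 of Zpbp2 and 280 and 477 of Dpy19l2. They held 3 and 11 UMIs of Spaca1, 0 and 2 of Spaca3, 0 and 1 of Spaca7, and 0 in both libraries of Acrv1 and Spam1. A count of 0 allows up to 2.52 CPM in TO 1 and 1.35 CPM in TO 2, taking 3 counts as the limit of counting error. All 5 earlier genes were thus transcribed in TO spermatocytes, and for Acrv1 and Spam1 transcription was not detectable there at this depth.

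The later genes were present in TO 2 from position 6 on. Its 17 cells at positions 6 to 8, with 1141851 UMIs, held 730 UMIs of Spaca1, 393 of Spaca7, 288 of Spaca3, 287 of Acrv1 and 49 of Spam1. These are 639, 344, 252, 251 and 42.9 CPM, against 768 and 798, 648 and 755, 591 and 424, 812 and 550, and 175 and 188 CPM in testis 1 and testis 2. Over these pooled positions Spaca1 came nearest to the testes and Spam1 stayed farthest below them. This was not tested because TO 1 had 1 cell there, with 3 UMIs each of Spaca1 and Acrv1 and 1 of Spaca3. Positions 6, 7 and 8 held 5, 10 and 2 cells of TO 2. They held 305, 357 and 1000 of testis 1 and 156, 197 and 175 of testis 2. At position 6 Spam1 was at 77.9 CPM in TO 2 against 96.6 and 68.9 in testis 1 and testis 2. At position 7 it was at 30.4 against 163 and 201. Spaca1 was at 442 against 491 and 359 at position 6 and at 647 against 681 and 792 at position 7. The part of this mix in the pooled differences was not tested.

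Over whole stages, within the study's limits on cells, the highest testis stage was the round spermatid for Acr, Zpbp and the 5 later genes, and the diplotene and dividing stage for Acrbp, Zpbp2 and Dpy19l2. In TO spermatogonia and in leptotene and zygotene cells (166 and 211 cells), 9 of the genes were below 20 CPM. Zpbp was higher, at 58.9 and 48.0 CPM in undifferentiated spermatogonia, 38.4 and 25.9 in differentiating spermatogonia and 33.3 and 31.2 in leptotene and zygotene cells of TO 1 and TO 2, against 10.6 and 10.7 in the somatic cells. Zpbp was thus 2.42 to 5.54 times the somatic level in both TO libraries at every stage before pachytene. Spaca1 was also above the somatic level, at lower CPM. In undifferentiated spermatogonia it was at 10.2 and 16.3 CPM against 1.71 and 2.46 in somatic cells of TO 1 and TO 2. This was 5.98 and 6.64 times the somatic level, the highest multiples of the 10 genes at that stage. In leptotene and zygotene cells Spaca1 was at 5.83 and 10.6 CPM. Acrbp had TO means of 18.7 CPM in undifferentiated spermatogonia and 6.87 in leptotene and zygotene cells, against 5.16 in somatic cells. In undifferentiated spermatogonia the TO means of Zpbp2 and Dpy19l2 were 7.67 and 3.07 CPM, against 3.64 and 1.58 in somatic cells.

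**Figure D2:**
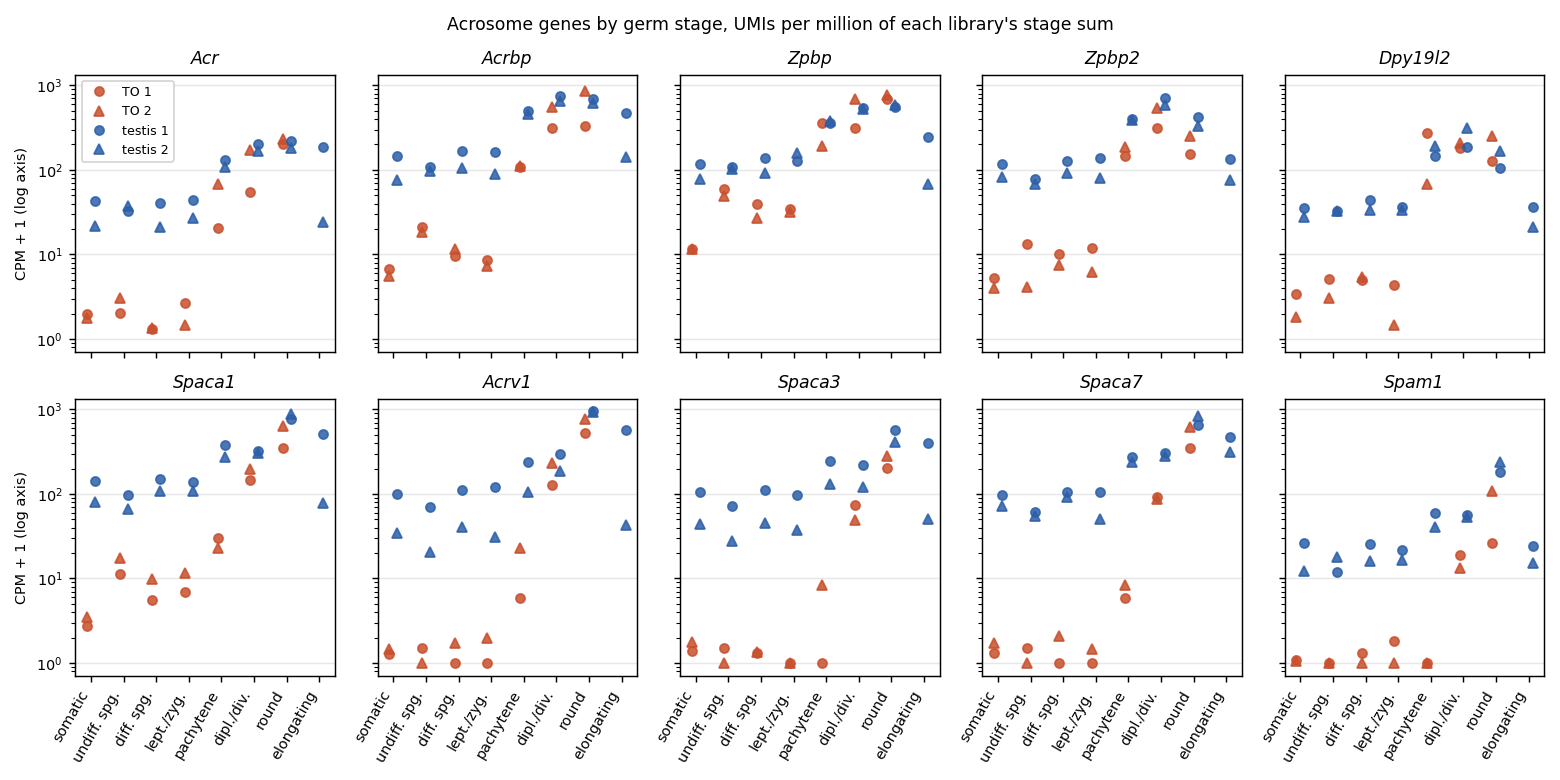
CPM + 1 (log axis) of the 10 acrosome genes in each library's sum over somatic cells and over 7 germ stages, with TO 1 and TO 2 in orange and testis 1 and testis 2 in blue. For the genes of the top row TO levels step up by the pachytene stage, to means of at least 43.0 CPM. Those of the bottom row have TO means of at most 25.7 CPM there and rise further after it. Of these, Spaca1 and Acrv1 rise from TO means of 8.20 and 0.48 CPM in leptotene and zygotene cells to 25.7 and 13.5 in pachytene cells. Testis points are nearly level from somatic cells to leptotene and zygotene cells, apart from Zpbp in testis 2.

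In the testes the same genes were found in every cell type. Testis somatic cells held 11.3 to 145 CPM of the 10 genes, against 0.06 to 10.7 CPM in TO somatic cells. Leptotene and zygotene cells of the testes were at 0.71 to 2.03 times the somatic level of their library for all 10 genes. The 2.03 times was that of Zpbp in testis 2, at 156 CPM. In cells of at least 3000 UMIs without upper limits, Zpbp in testis 2 was at 2.64 times the somatic level. The spermatid genes Prm1, Prm2, Tnp1 and Tnp2 encode the proteins that replace histones in elongating spermatids. Their summed CPM in leptotene and zygotene cells was 0.86 and 0.80 times the somatic level in testis 1 and testis 2. Apart from Zpbp in testis 2, acrosome transcripts in these testis cells were thus near the level that cells without an acrosome also showed.

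The testis pachytene class depended on which cells entered it. Within the study's limits, 1496 of 1985 and 962 of 1615 testis pachytene cells came from 1 cluster with a median of 1768 UMIs. The most common TO 1 cluster was another one, with 39 of the 82 TO 1 pachytene cells and a median of 1895 UMIs. That cluster had a pachytene marker score of 0.508 and a diplotene score of 0.502, so its stage name was nearly tied. Over the whole testis pachytene class the later 5 genes were at 2.33 to 2.83 times the somatic level in testis 1. In testis 2 they were at 3.07 to 3.51 times. The 4 spermatid genes were also raised, to 2.12 and 2.30 times in testis 1 and testis 2. In deep pachytene cells (at least 3000 UMIs, no upper limits, 382 and 581 cells) the later 5 genes were at 0.53 to 0.70 times the somatic level and the 4 spermatid genes at 0.50 and 0.49 times. The earlier 5 genes were above the somatic level in both kinds of cell, at 3.05 to 7.24 times within the limits and 3.17 to 10.0 times in deep cells. The part of free RNA from other cells in the testis levels was not tested.

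**Figure D3:**
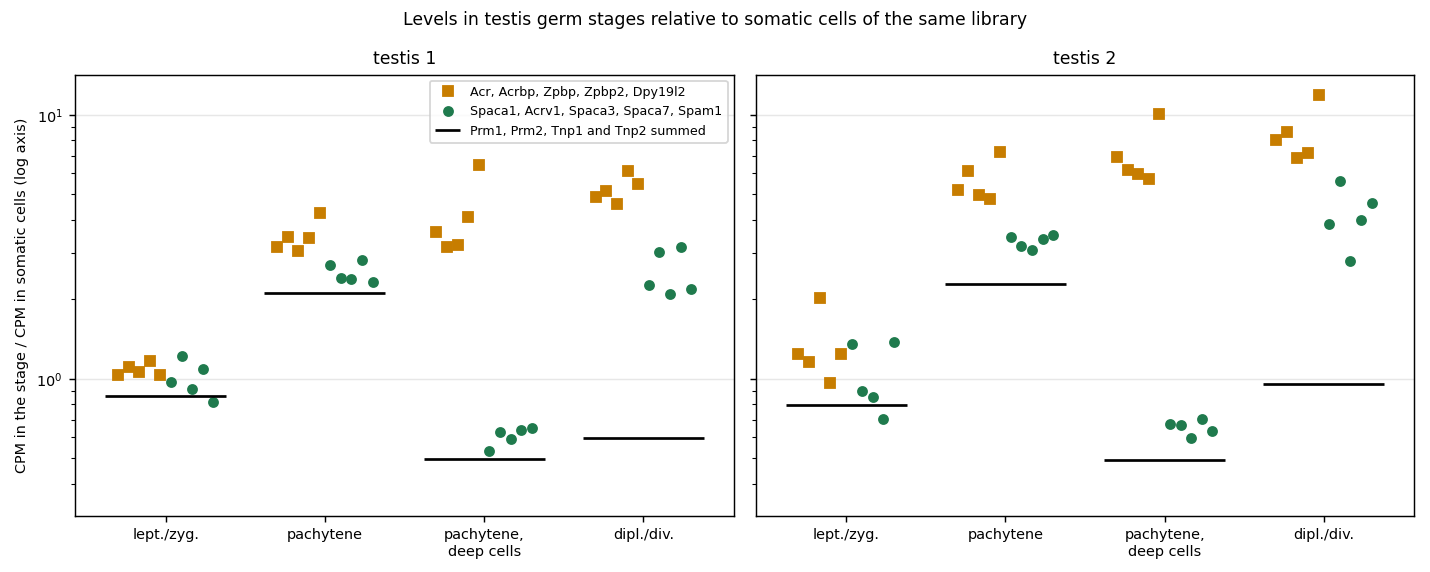
Level of each acrosome gene in testis spermatocytes divided by its level in somatic cells of the same library (log axis), for the earlier 5 genes (orange squares), the later 5 genes (green circles) and the sum of Prm1, Prm2, Tnp1 and Tnp2 (black line). In deep pachytene cells the later genes fall to 0.53 to 0.70 times the somatic level, next to the spermatid genes, while the earlier genes are at 3.17 times or more.

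By a rule for the start of transcription, TOs showed 3 members at the pachytene stage and the testes 0. A member counted as started at the first stage with at least 10 UMIs, at least 5 times the somatic level and at least 10% of its highest testis stage, in both libraries of a group. The 3 genes in TOs were Acrbp, Zpbp and Zpbp2. In these TO cells 1.85% of 29267 genes had at least 10 UMIs and 5 times the somatic level in both libraries. That total is of genes with a UMI in any cell kept, germ or somatic, of TOs or testes. It includes genes without a UMI in TO pachytene cells, and the share among genes seen there was not counted. Without the upper limits on cells, 5 members had started by the pachytene stage in TOs (Acr, Acrbp, Zpbp, Zpbp2 and Dpy19l2). Deep cells gave the same 5. In deep TO pachytene cells 5.67% of 29279 genes, a total over all deep cells of both groups, passed the first 2 parts of the rule. In both of these cell sets Zpbp passed the rule already in undifferentiated spermatogonia. Within the limits, at 1% of the highest testis stage in place of 10%, Spaca1 also counted as started in TOs, in undifferentiated spermatogonia. In the testes the threshold decided the count: at 2 times the somatic level in place of 5, all 10 genes counted as started within the limits, and the same earlier 5 in deep cells. Without testis 1, 3 genes passed at 5 times (Acr, Acrbp and Dpy19l2).

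The comparison of TOs with testes in pachytene spermatocytes depended on the same choice of cells. Within the study's limits, edgeR's quasi-likelihood test on UMIs summed per library called 5 of 10 genes lower in TOs, the later 5, and none of the earlier 5. A gene was called where its adjusted p was under 0.01 and its log2 fold change was beyond 1 in size, and 3.77% of all 12104 genes tested were called lower. Spaca1 was at 29.3 and 22.2 CPM in TO 1 and TO 2 against 381 and 274 in testis 1 and testis 2 (log2 fold change -4.13 ± 0.72 SE, edgeR adjusted p = 0.00155). Acrv1 was at 4.88 and 22.2 against 235 and 106 CPM (-4.28 ± 0.83, edgeR adjusted p = 0.00308). The groups did not overlap for either gene, and the share of all genes without overlap was not counted.

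For the other 3 called genes TOs held 3 UMIs or fewer, so the fold is given from pooled counts with its 95% counting interval. Spaca3, with 1 UMI, was at 0.0151 times the testis level (0.000383 to 0.0845, edgeR adjusted p = 0.000904), and Spaca7, with 2 UMIs, at 0.0229 times (0.00277 to 0.0826, edgeR adjusted p = 0.000814). Spam1 had 0 UMIs in TOs against 452 in testes and was at least 5.65-fold lower, with 3 counts over both TO libraries as the limit (edgeR adjusted p = 0.00441).

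The earlier genes lay closer to the testes. Dpy19l2 was at 273 and 66.5 CPM in TO 1 and TO 2 against 146 and 191, so that 1 TO library lay above and the other below both testes (log2 fold change -0.49 ± 0.61 SE, edgeR adjusted p = 0.616). Zpbp was at 361 and 192 against 360 and 383 CPM (-0.92 ± 0.62, edgeR adjusted p = 0.331). Acr was at 19.5 and 66.5 against 131 and 108 CPM, Zpbp2 at 146 and 185 against 398 and 389, and Acrbp at 107 and 111 against 499 and 463, with log2 fold changes of -2.02, -1.71 and -2.61 and edgeR adjusted p of 0.0516, 0.0786 and 0.0167. These 3 genes were below both testes in both TO libraries without passing the threshold, and the share of all genes that did so was not counted. TO 1 pachytene cells had a summed level of somatic cell markers at 22.2% of that in somatic cells, against 3.62% in TO 2 and 1.74% to 2.54% in the testes, and the part of this in the differences was not tested. Single libraries moved the count, and with it that over all genes. Without TO 1, 3 members and 128 of 14281 genes were called lower, and without TO 2, 8 members and 1466 of 14656 genes. Without testis 1 it was 1 member and 77 of 6132 genes, and without testis 2, 2 members and 176 of 6252 genes.

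Deep pachytene cells, an alternative chosen after the data were seen, gave a more even picture. They numbered 31 and 45 in TOs with median UMIs of 20244 and 24890, and 382 and 581 in testes with 16385 and 10658. Acrbp was at 177 and 175 CPM in TO 1 and TO 2 against 356 and 371 in the testes, and was called lower (log2 fold change -1.18 ± 0.20 SE, edgeR adjusted p = 0.00696). Its somatic level was 112 and 60.3 CPM in testis 1 and testis 2 and 5.06 and 4.44 in TOs, and the part of this background in the difference was not tested. Spaca7 was also called lower, with 8 and 6 UMIs in TOs (10.6 and 3.47 against 45.3 and 38.0 CPM, -2.92 ± 0.43, edgeR adjusted p = 0.00396), at a testis level below that of the somatic cells. These 2 calls compare with 2.72% of 12324 genes called lower.

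The other earlier genes in deep pachytene cells did not pass. Zpbp2 was at 215 and 208 CPM against 343 and 369 (log2 fold change -0.88 ± 0.20 SE, edgeR adjusted p = 0.0210), Acr at 73.1 and 86.7 against 117 and 108 (-0.59 ± 0.21, edgeR adjusted p = 0.0793), Zpbp at 294 and 253 against 288 and 365 (-0.40 ± 0.22, edgeR adjusted p = 0.245) and Dpy19l2 at 226 and 184 against 188 and 230 (-0.17 ± 0.22, edgeR adjusted p = 0.619). Zpbp and Dpy19l2 overlapped between TOs and testes, while Zpbp2 and Acr were lower in both TO libraries. The share of all genes lower in this way was not counted. Acrbp had the lowest fold change of the 5 genes and Zpbp and Dpy19l2 the ones nearest to 0 in both sets of cells, while Acr and Zpbp2 changed places. All genes tested had a median log2 fold change of -0.20 within the limits and -0.05 in deep cells.

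**Figure D4:**
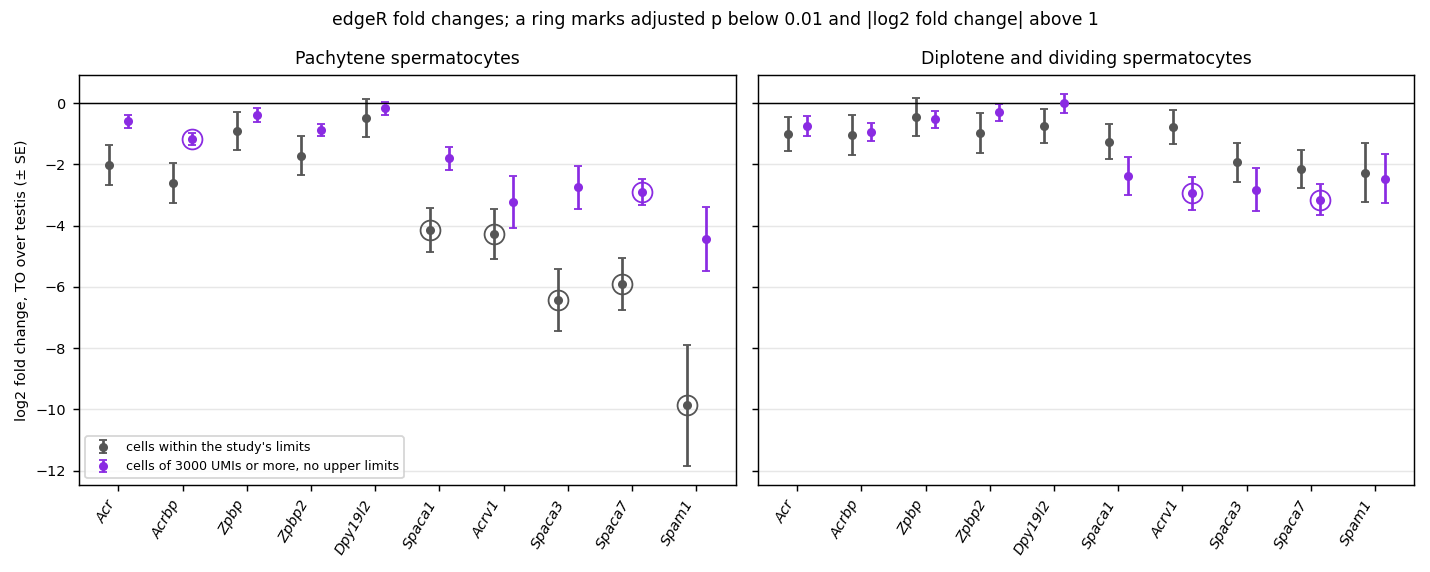
Log2 fold change (TO over testis, ± SE, edgeR) of the 10 genes in pachytene spermatocytes (left) and in diplotene and dividing spermatocytes (right), within the study's limits on cells (grey) and in cells of at least 3000 UMIs without upper limits (purple), rings marking calls. The later genes are lower by far more within the limits than in deep pachytene cells, and the grey value of Spam1 in pachytene cells rests on 0 TO UMIs and depends on the prior count.

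Cluster by cluster, of the earlier genes Acr, Acrbp and Zpbp2 were lower in both TO libraries than in every testis library measured at positions 1 to 5. The share of all genes that did the same was not counted. For Acr the gap at position 3 was narrow, with 83.6 and 139 CPM in TO 1 and TO 2 against 160 and 145 in the testes. At position 3 Acrbp was at 247 and 249 CPM in TO 1 and TO 2 against 567 and 478 in testis 1 and testis 2, and Zpbp2 at 326 and 298 against 686 and 600. At position 4 the gap was narrow, with 433 and 457 against 565 CPM in testis 2 for Acrbp and 722 and 767 against 808 for Zpbp2. At position 5 Acrbp was at 304 and 281 against 742 and 674, and Zpbp2 at 536 and 499 against 820 and 786. These differences rest on 4 to 12 TO cells per library and position and were not tested. At position 7, where TO 1 had no cells, the 10 cells of TO 2 held 754 CPM of Zpbp2 against 590 and 562.

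Before pachytene, all 10 genes were called lower in TOs among leptotene and zygotene cells, where 13.0% of 10439 genes were called lower. Log2 fold changes ran from -2.09 ± 0.27 SE for Zpbp (33.3 and 31.2 CPM against 125 and 156) to -9.61 for Spaca3, with 0 TO UMIs against 163 and so at least 65.1-fold lower. The testis levels here were those described above, near the somatic level except for Zpbp in testis 2. After the background of each library was subtracted, 6 members could be tested and 0 were called, with 2 of 6 at an unadjusted p under 0.05. As 0 of all 7124 genes tested were called then, this count says nothing particular about the members. Without TO 2 the count was 4 of 10, beside 326 of 11248 genes called lower, and in deep cells of this stage it was 10 of 10, against 11.8% of 9485 genes. For the sum over all germ cells 10 of 10 genes were lower, against 32.0% of 20375 genes, a sum that also moves with the share of each stage. In deep germ cells 4 of 10 were lower (Acrbp, Zpbp, Dpy19l2 and Spam1), against 17.1% of 20846 genes.

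In diplotene and dividing spermatocytes, with 14 and 12 TO cells, edgeR called 0 of 10 genes and DESeq2 0, with 4 and 3 genes at an unadjusted p under 0.05. Only 0.413% of 11376 genes were called lower at this stage. Zpbp was at 308 and 683 CPM in TO 1 and TO 2 against 544 and 529, Acrbp at 308 and 561 against 745 and 655, and Zpbp2 at 308 and 536 against 713 and 582. The TO libraries differed from each other by about as much as from the testes for these genes, and TO 1 values rest on 17 UMIs each. The gap was wider for the later genes Spaca7 (90.6 and 85.3 against 304 and 281 CPM, log2 fold change -2.15 ± 0.62 SE, edgeR adjusted p = 0.0361) and Spaca3 (72.5 and 48.8 against 216 and 119, -1.94 ± 0.63, edgeR adjusted p = 0.0856). In deep cells of this stage Spaca7 and Acrv1 were called lower, against 1.14% of 12585 genes. Acrv1 was at 17.6 and 41.6 CPM against 298 and 125 there (-2.94 ± 0.54, edgeR adjusted p = 0.00982). Somatic markers in diplotene and dividing cells within the limits were at 15.1% and 4.65% of the somatic level in TO 1 and TO 2 and at 0.71% and 0.68% in the testes, and their part was not tested. The stage was made up differently in the groups: of the ordered clusters, position 6 held 1 and 5 cells of TO 1 and TO 2 and 305 and 156 of the testes.

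Round spermatids of TOs expressed all 10 genes. This comparison, added after the data were seen, rests on 15 and 17 TO cells. Acrv1 was at 530 and 761 CPM in TO 1 and TO 2 against 953 and 935 in testis 1 and testis 2, Spaca1 at 353 and 637 against 771 and 876, and Spaca7 at 353 and 621 against 654 and 827. Acr was at 202 and 233 against 218 and 179 CPM, Zpbp at 682 and 777 against 553 and 590, and Dpy19l2 at 126 and 248 against 104 and 167. In CPM, Acr, Acrbp and Dpy19l2 overlapped with the testes and Zpbp lay above both. The earlier gene Zpbp2 (151 and 248 against 425 and 334) and all 5 later genes lay below both testes in both TO libraries. The share of all genes that lay below in this way was not counted, and their median log2 fold change was -0.74. The position of these members is thus a description without a background. The fitted fold changes, which use TMM factors, were below 0 for all 10 genes, also for Zpbp (log2 fold change -0.37 ± 0.47 SE, edgeR adjusted p = 0.606), Acr (-0.59 ± 0.51, edgeR adjusted p = 0.469) and Dpy19l2 (-0.16 ± 0.52, edgeR adjusted p = 0.861). For these 3 genes the direction thus depended on the scaling and was not determined. Somatic markers in round spermatids were at 14.5% and 5.29% of the somatic level in TO 1 and TO 2 and at 0.94% and 0.88% in the testes, and their part in the differences was not tested. The stage was also made up differently in the groups. Its cluster led by Agbl1 held 7 and 8 cells of TO 1 and TO 2 and 771 and 492 of testis 1 and testis 2. The cluster led by 1700021F02Rik held 0 and 0 against 775 and 62, and that led by Alk 0 and 1 against 570 and 417. The part of this in the differences was not tested.

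Only Spam1 was called lower in round spermatids, at 25.2 and 109 CPM against 182 and 241 (log2 fold change -2.20 ± 0.61 SE, edgeR adjusted p = 0.00693), where 4.25% of 13696 genes were called lower and the median of all genes was -0.74. The TO 1 value rests on 1 UMI. With RLE size factors and with DESeq2 the count was 0, and with the replicate number as a block it was also 0. An exact permutation test of 2 against 2 libraries cannot give a p below 0.333, so no single value was tested that way. In elongating spermatids Spaca7 was highest in testis 2, with 310 CPM, while the other 9 genes were at 14.4 to 142 CPM there. In testis 1 Acrv1 was higher than Spaca7 (563 against 471 CPM), so the libraries differed at this stage.

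Single cells showed the same steps. When each cell was thinned to 1500 UMIs, 28 of 65 pachytene cells of TO 1 had a UMI of Zpbp (43.1%, exact 95% interval 30.8 to 56.0%) and 4 of 26 in TO 2 (15.4%, 4.36 to 34.9%), against 1.76% and 1.96% of somatic cells. The median depths before thinning were 1984.5 and 2314 UMIs in pachytene cells and 5327 and 7455 in somatic cells, and 17 and 2 shallower pachytene cells were left out. Dpy19l2 was seen in 30.8% and 19.2% of these cells, Zpbp2 in 18.5% and 38.5%, Acrbp in 13.8% and 23.1% and Acr in 3.08% and 11.5%. Spam1 gave a UMI in 0 of 65 and 0 of 26 cells. At this depth counts of 0 leave room for 4.62% and 11.5% of cells with a UMI, and they do not limit the share of cells that express the gene. In testes Zpbp was seen in 45.5% and 44.9% of pachytene cells, but also in 19.7% and 15.9% of somatic cells.

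At least 1 of the 10 genes was seen in 10.98% and 5.69% of TO leptotene and zygotene cells, 72.3% and 50.0% of pachytene cells, 91.7% and 91.7% of diplotene and dividing cells and 92.3% and 100% of round spermatids, against 4.8% and 4.03% of TO somatic cells. The share thus rose more between the zygotene and pachytene stages of TOs than between somatic cells and zygotene cells. In the testes 76.2% and 60.04% of somatic cells had a UMI of at least 1 of the genes, so the step was smaller there. At least 5 of the genes together were seen in 23.1% and 26.7% of TO round spermatids and in 53.2% and 55.0% of testis round spermatids.

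**Figure D5:**
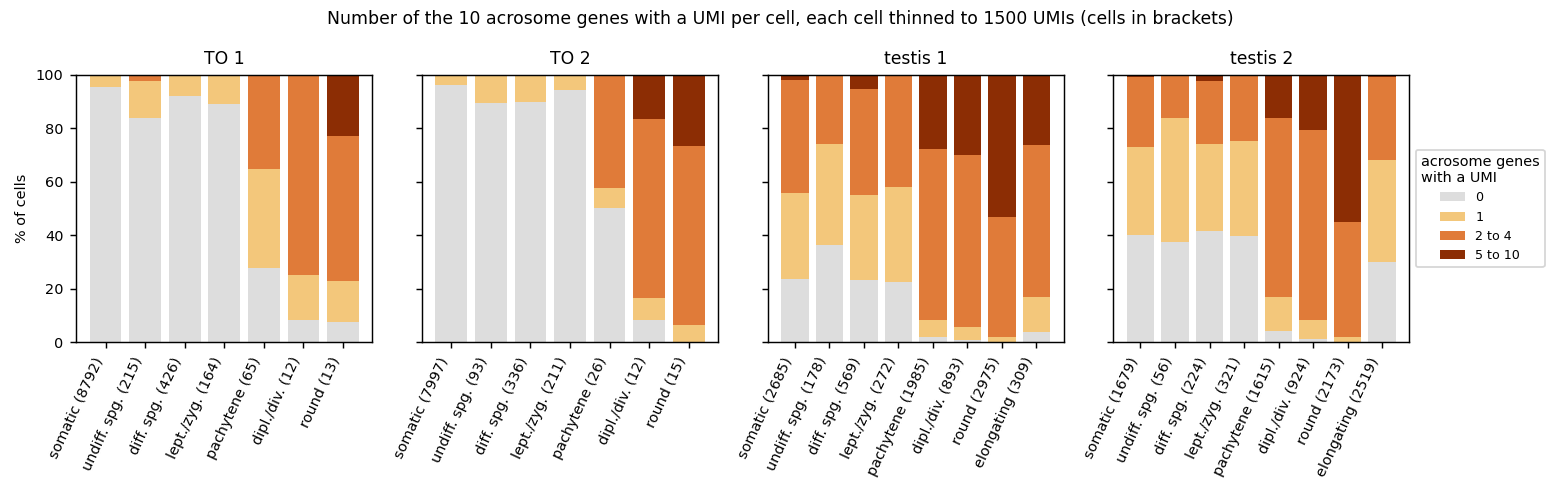
Share of cells (%, vertical axis) with UMIs of 0, 1, 2 to 4 or at least 5 of the 10 acrosome genes, by stage and library, each cell thinned to 1500 UMIs. In TOs the grey share without any of the genes drops from 89.0% and 94.3% in leptotene and zygotene cells to 27.7% and 50.0% in pachytene cells, and in testes somatic cells already hold such UMIs.

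The 2 groups of genes were also counted within single TO cells. The groups were divided after the levels in deep cells were seen. The cells counted here overlap with those of the ordered clusters, so the counts restate the division per cell and are no further support for it. In deep pachytene cells the earlier 5 genes had 741 and 1567 UMIs in TO 1 and TO 2 and the later 5 had 43 and 26, and in 23 of 31 and 31 of 45 cells only earlier genes were detected. A single cell in each TO library held later genes alone. In the testes 342 of 382 and 457 of 581 deep pachytene cells held UMIs of both, and 40 and 122 held earlier genes alone, at later-gene levels below those of somatic cells. Among the 26 deep round spermatids of TO 2, every cell held UMIs of both, 2232 of the earlier and 1752 of the later genes. In testis round spermatids the later genes outweighed the earlier ones, with 82567 against 51987 UMIs in testis 1 and 35357 against 19967 in testis 2.

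For each gene the other genes with the most similar course over 14 testis stage sums were looked up, by Pearson correlation of log2(CPM + 10) among 8672 genes with at least 50 CPM in 1 of the sums. The stages share libraries and background, so these values only describe likeness. Acrv1 was most like Catsper4 (r = 0.99), a sperm calcium channel subunit that also served as a round spermatid marker, and Pdilt (0.99), a testis chaperone. Spaca1 was most like Efcab9 and Prr27, Spaca3 like Fthl17a and Fam209, Spaca7 like 4933402J10Rik and 1700099I09Rik, and Spam1 like Itgad and Gm20268. Acr was most like Ccdc13 and Armh1, Acrbp like 1700003H04Rik and Ndufa4l2, Zpbp like Rfx4 and Ccdc173, Zpbp2 like Gm36864 and Tprn, and Dpy19l2 like Art3 and Wdr63, all at r of 0.97 to 0.99. Among the members themselves the least alike pair was Spaca3 and Dpy19l2 (r = 0.56) and the most alike Acrv1 and Spaca3 (0.98).

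A list of 46 other acrosome genes was counted beside the members. Of its 19 genes for building the organelle, 3 passed the first 2 parts of the start rule in TO pachytene cells (Ccdc136, Spata16 and Spink2), and of its 27 genes for contents and membranes 6 did (Adam2, Adam3, Crisp2, Dkkl1, Izumo4 and Spesp1). In deep cells the contents genes were the same 6, and Dnah17 and Pcsk4 joined the first list. Spink2, an inhibitor of acrosomal proteases, was at 1745 and 1279 CPM in deep pachytene cells of TO 1 and TO 2 against 1977 and 2530 in testes, and Crisp2, a cysteine-rich acrosomal protein, at 1628 and 1386 against 1471 and 1688. Izumo1, the sperm protein that binds the egg receptor in fusion, had 0 UMIs in both TO libraries there.

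Between TOs and testes, 11 of the 43 other genes tested were called lower in pachytene cells within the limits and 0 higher, 8 of 25 contents genes and 3 of 18 genes for building. Their median log2 fold changes were -3.76 and -0.41, beside -0.20 over all genes. The 3 with the largest fitted changes were Lyzl1 and Spaca4, further acrosomal proteins, and Izumo2, a relative of Izumo1, each with 0 TO UMIs against 252 and 159, 191 and 72.2, and 143 and 143 CPM in testis 1 and testis 2. In deep cells 10 of 41 were lower, and the testis levels of these 3 genes were 41.0 and 22.8, 35.0 and 12.8, and 26.3 and 17.3 CPM, below the somatic levels of 69.6 and 33.7, 55.4 and 20.2, and 43.6 and 34.6 CPM.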

How the data were processed

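Cells of unsorted mouse testes and TOs were profiled on the 10x Genomics platform. The authors deposited a raw UMI count matrix per library, made with Cell Ranger 7.1.0 on mm10 (GRCm38). The labels do not state the counting settings.

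The limits on cells follow the study's methods. Doublets were removed with Scrublet, where the study used DoubletFinder (0.8% per 1000 cells, 1119 to 1715 barcodes per library). Barcodes stayed in with 1000 to 5000 genes detected, no more than 20000 UMIs and a mitochondrial share of 10% or less. Libraries were joined with an own implementation of Harmony on 2000 variable genes and clustered (scanpy 1.11.5, leidenalg 0.10.2), acrosome genes left out. Clusters were named from 8 markers per stage, at least 3 of them detected. Counts were summed per library and stage, and TOs were compared with testes by edgeR 4.0.16 (R 4.3.3), with TMM factors, filterByExpr, the quasi-likelihood test and Benjamini-Hochberg adjustment over all genes tested. Stages with under 10 cells in a library were not tested. DESeq2 1.42.0, other filters, factors and thresholds, a replicate block, single libraries left out and other cell sets were alternatives, and the test was checked on simulated counts. Cells of at least 3000 UMIs, the order of clusters and the round spermatid comparison were added after the data were seen.

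The members and lists were chosen with earlier results of these data known. All 10 members are named. Named beside them are the 2 genes most like each, the 3 other acrosome genes with the largest changes among those called, and, chosen after their values were seen, those that passed the start rule, Spink2, Crisp2 and Izumo1. Intervals are exact at 95% and cover counting error only, since the libraries held 74988295 to 119966959 UMIs but TO stages few cells. The replicate numbers of TOs and testes did not pair the samples.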

Additional observations from a re-analysis of the deposited data

How the results depend on the processing

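The count of all genes called lower in TOs also moved with the setting, so a changed count alone is no result about the members. In pachytene cells 456 of 12104 genes were lower as given above, 887 of 12942 with doublets kept and 130 of 12041 by Spearman matching. In diplotene and dividing cells 47 of 11376 were lower, and 737 of 13875 without upper limits. In round spermatids 582 of 13696 were lower, and 696 of 14732 without upper limits. Over all germ cells 6516 of 20375 were lower, and 4420 of 21435 without upper limits. The counts of acrosome genes called lower in TOs kept within 1.5 times the value given under most alternatives, with these exceptions, whose causes were not tested unless a value is given. In leptotene and zygotene cells the count of 10 became 0 after background subtraction, which left 6 members to test, and 4 to 10 without single libraries. In pachytene cells the count of 5 became 8 with doublets kept, 1 with cells matched to stages by Spearman correlation, 0 in cells of at least 3000 UMIs (where 0 of all 8401 genes were called lower), 2 in such cells without upper limits, and 1 to 8 without single libraries. Background subtraction gave 3, but it also moved the median log2 fold change of all genes to 8.79, so this value is void. In diplotene and dividing cells the count of 0 became 1 at an adjusted p below 0.05, 4 without upper limits and 2 in deep cells without them, and stayed 0 without single libraries. In round spermatids the count of 1 became 0 with RLE factors, DESeq2, the replicate block or no upper limits, 4 with all genes of any UMI or at an adjusted p below 0.05, 2 with acrosome genes kept in clustering, and 0 without any single library. Over all germ cells the count of 10 became 5 without upper limits and 4 in deep cells without them, and stayed 10 without single libraries.

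Genes started by pachytene numbered 0 in testes, 10 at 2 times the somatic level, 1 in cells of at least 3000 UMIs with or without upper limits (5 at 2 times without them), and 0 to 3 without single libraries. In TOs the 3 genes became 5 without upper limits, 0 without Harmony, 5 by Spearman matching, 1 in cells of at least 3000 UMIs, 5 in such cells without upper limits (5 at 2 times) and 3 to 4 without single libraries. The first stage of Zpbp in TOs moved from pachytene to undifferentiated spermatogonia without upper limits, also in cells of at least 3000 UMIs. It moved in the same way with acrosome genes kept in clustering and without TO 2.

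The sign turned for Dpy19l2 in pachytene cells by Spearman matching (log2 fold change 0.30) and for Zpbp in diplotene cells without TO 1 (0.066, with -1.54 to 0.066 over the libraries left out in turn). In round spermatids it turned for Acr without testis 1 (0.18, range -0.98 to 0.18), for Zpbp without testis 1 (0.20) and testis 2 (0.28, range -0.74 to 0.28), and for Dpy19l2 with RLE factors (0.021), DESeq2 (0.011) and without TO 1 (0.19), testis 1 (0.12) and testis 2 (0.79, range -1.08 to 0.79). No member was past the threshold in these cases.

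Samples with the same replicate number did not deviate together (r of -0.094 to 0.081 over the stages). With the replicate block the counts were 10, 5, 0, 0 and 10 in leptotene and zygotene, pachytene, diplotene, round and all germ cells. Not run, with under 10 cells in a library, were the fits without Harmony for the pachytene, diplotene and round stages, and those by Spearman matching and with at least 3000 UMIs for the diplotene and round stages. Depth limits the TO values, with 340513 UMIs in all pachytene cells of both TO libraries and 137186 in diplotene cells against 9085491 and 10944563 in testes. The library left as the lone sample of its group is assumed to vary like the other group.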
